A study of Homo sapiens with 16 samples.

Results

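The genes described here are 9 genes of HLA class I antigen presentation, HLA-E, HLA-F, B2M, TAP1, TAP2, TAPBP, PSMB8, PSMB9 and NLRC5, of 19775 genes that the arrays measured with a probe set of a single gene symbol and of 14049 that were bright enough to be tested. They were chosen by name, for their place in the pathway, and all 9 passed the filter on dim genes. The brightest single-symbol probe set of each stood for the gene, and the 9 genes had 20 such probe sets in all. RNA of 4 acute myeloid leukaemia (AML) lines, all of them established human cell lines, was measured on 16 Affymetrix U133 Plus 2.0 arrays. The lines were AML-193, which is monocytic, HL60, which is promyelocytic, KG1a, which is immature, and HNT-34. The cultures were given vehicle (DMSO) or 0.5 µM azacitidine (AZA), a nucleoside drug that cells incorporate into RNA and DNA and that inhibits DNA methyltransferases, every day for 3 days, and were then kept for 4 days without drug. Every group held 2 arrays, and all lines grew in RPMI medium with light-labelled lysine and arginine, prepared for mass spectrometry. Whether both arrays of a group stand for separate cultures is not stated in the labels, so p-values measure the spread between these arrays, which may be technical. Each line is a single model of the disease. Values are log2 signals of a probe set, on which a difference of 1 is a doubling, and levels are compared between groups for the same probe set and never between genes.

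HLA class I molecules show peptides from inside the cell to CD8+ T cells and to natural killer cells. The immunoproteasome, whose catalytic subunits include PSMB8 and PSMB9, cuts proteins into peptides. The transporter TAP1-TAP2 moves them into the endoplasmic reticulum, where tapasin (TAPBP) holds the class I molecule next to the transporter until it is loaded. The loaded molecule is a heavy chain paired with the light chain beta-2-microglobulin (B2M). HLA-E is a heavy chain that presents mostly leader peptides of other HLA molecules to the receptor NKG2A on natural killer cells, and HLA-F is a heavy chain with a narrow range of expression. NLRC5 is the coactivator that drives transcription of these genes through the RFX, CREB and NF-Y proteins bound at their promoters. Interferons raise most of the pathway through STAT and IRF factors. Loss of class I presentation is a known way in which leukaemia cells escape T cells.

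In RefSeq coordinates of GRCh38.p14, 7 of the 9 genes lie on chromosome 6. TAP2 (chr6:32821831-32838739), PSMB8 (chr6:32840717-32844679), TAP1 (chr6:32845209-32853704) and PSMB9 (chr6:32854192-32859851) are neighbours. HLA-F (chr6:29723434-29738532), HLA-E (chr6:30489509-30494194) and TAPBP (chr6:33299694-33314078) lie elsewhere on that chromosome. B2M is at chr15:44711517-44718145 and NLRC5 at chr16:56989557-57083520. TAP1 and PSMB9 are transcribed away from each other, and their annotated starts are 487 bases apart.

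The 250 bases before the annotated start are shown for 6 genes whose signals stood apart in HNT-34 or changed after AZA, because they hold, or in the case of PSMB9 lack, the letters of an interferon regulatory factor (IRF) element. The windows of PSMB8, which also lack these letters, are not shown. RefSeq promoter sequences of GRCh38.p14 were matched for 7 of the 9 genes, HLA-F, B2M, TAP1, TAP2, TAPBP, PSMB8 and PSMB9, with 9 sequences in all since TAP1 and PSMB8 have 2 starts each. HLA-E and NLRC5 had no entry. Capitals mark GAAANNGAAA, the IRF element, on either strand. Each sequence runs 5′ to 3′ towards the start. The HLA-F window is chr6:29723184-29723433 (plus strand), B2M chr15:44711267-44711516 (plus strand), TAP1 chr6:32853705-32853954 (minus strand), TAP2 chr6:32838740-32838989 (minus strand), TAPBP chr6:33314079-33314328 (minus strand) and PSMB9 chr6:32853942-32854191 (plus strand).
HLA-F: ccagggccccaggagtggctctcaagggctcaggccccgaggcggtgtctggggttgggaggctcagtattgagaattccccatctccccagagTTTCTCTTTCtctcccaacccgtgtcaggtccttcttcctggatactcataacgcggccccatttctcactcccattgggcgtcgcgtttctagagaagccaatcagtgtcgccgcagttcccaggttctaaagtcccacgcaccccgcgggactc
B2M: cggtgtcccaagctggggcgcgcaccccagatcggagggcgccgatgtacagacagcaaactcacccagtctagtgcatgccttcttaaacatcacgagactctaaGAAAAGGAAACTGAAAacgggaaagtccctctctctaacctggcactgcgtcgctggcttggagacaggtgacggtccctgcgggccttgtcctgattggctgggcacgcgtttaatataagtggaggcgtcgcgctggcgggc
TAP1: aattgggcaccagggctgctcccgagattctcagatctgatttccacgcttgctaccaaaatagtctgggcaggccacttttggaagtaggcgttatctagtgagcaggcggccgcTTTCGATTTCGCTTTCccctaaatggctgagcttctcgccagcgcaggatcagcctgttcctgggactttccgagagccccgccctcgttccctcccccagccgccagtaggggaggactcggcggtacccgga
TAP2: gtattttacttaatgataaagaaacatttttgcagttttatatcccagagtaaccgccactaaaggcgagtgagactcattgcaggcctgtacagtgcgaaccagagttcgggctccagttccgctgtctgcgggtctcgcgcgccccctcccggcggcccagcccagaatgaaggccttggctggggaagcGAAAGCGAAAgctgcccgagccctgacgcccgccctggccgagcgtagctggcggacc
TAPBP: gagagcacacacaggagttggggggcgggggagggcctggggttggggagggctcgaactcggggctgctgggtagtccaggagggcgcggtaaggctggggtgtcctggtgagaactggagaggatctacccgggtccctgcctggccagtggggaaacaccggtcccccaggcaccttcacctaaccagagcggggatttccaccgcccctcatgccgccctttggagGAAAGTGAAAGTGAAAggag
PSMB9: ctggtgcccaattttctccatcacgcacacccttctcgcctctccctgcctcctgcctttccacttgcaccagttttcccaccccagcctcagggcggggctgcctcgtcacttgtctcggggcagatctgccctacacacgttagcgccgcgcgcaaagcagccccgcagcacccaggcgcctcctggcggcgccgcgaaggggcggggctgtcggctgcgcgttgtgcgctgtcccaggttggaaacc

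Within the windows, the IRF element was found before a start of 5 of the 7 genes, HLA-F, B2M, TAP1, TAP2 and TAPBP. It was found in 3.02% of 35116 promoter windows of the same length. In B2M, TAP1 and TAPBP there were 2 overlapping copies. The copies lay between positions -156 and -147 in HLA-F, -144 and -129 in B2M, -134 and -119 in TAP1, -58 and -49 in TAP2, and -20 and -5 in TAPBP, counted back from the start. Those of TAP1 lie in the stretch between the starts of TAP1 and PSMB9. They are thus also before the start of PSMB9, but farther from it than its window reaches. Other motifs were searched on both strands as well. The gamma-interferon-activated sequence TTCNNNGAA, which reads the same on both strands and which STAT factors bind, was present before the second starts of TAP1 and PSMB8 and in 6.57% of all windows. The CCAAT box, read by NF-Y, was present in HLA-F, B2M, TAP1 and PSMB9 and in 32% of windows. The windows of TAP1 and PSMB9 overlap at their far ends, and the CCAAT match of TAP1 and that of PSMB9 are the same bases. The letters TGACG, the core of the element that CREB binds, were present in B2M, TAP2, PSMB8 and PSMB9 and in 21.2% of windows. The NF-kappa-B consensus was present in B2M, TAP1 and TAPBP and in 9.96% of windows. No match of these other motifs shared bases with an IRF element. A match describes letters in a window and is not a measured binding site, and a window without a match says only that these letters are not in it.

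**Figure D1:**
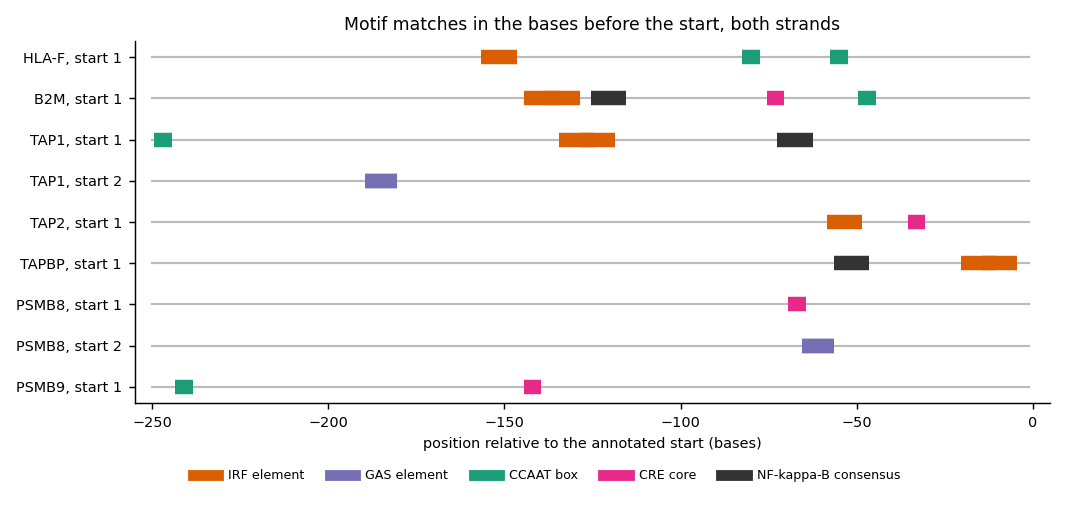
Motif matches in the 250 bases before each annotated start of 7 genes, with the position relative to the start in bases on the x axis and a row for each start. Coloured blocks are matches on either strand: IRF elements lie between positions -156 and -5 in 5 rows, and the second starts of TAP1 and PSMB8 carry the gamma-interferon-activated sequence.

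The arrays were checked before the genes were compared. Their quantiles were equal to within 0.00404, the array median was 6.73 and values ran from 3.26 to 15.3. The 2 arrays of a group correlated at 0.995 to 0.998 over the tested genes. Of the 9 measured markers of myeloid and progenitor cells, 7 to 9 were at or above the array median in every group, with PTPRC, SPI1 and CEBPA above it on all 16 arrays, while ANPEP was low in AML-193 (5.25 in vehicle) and MPO low in HNT-34 (5.90). CD3G of T cells, MS4A1 of B cells, KLRD1 of natural killer cells, CLEC4C of dendritic cells and EPCAM and CDH1 of epithelia were below the array median on all arrays. Other markers of the same cell types were not: CD3E of T cells, CD79A of B cells, NKG7 and NCR1 of natural killer cells, CD1C of dendritic cells and KRT8 and KRT18 of epithelia were at or above it on all 16 arrays. CD3D of T cells was above it on 10 arrays, with a mean of 9.54 in KG1a after AZA. KRT18 and the endothelial marker VWF were brightest in HNT-34 (12.7 and 11.9 in vehicle). The part of these markers in the results was not tested. An indicator of RNA quality, the signal of the 3′ minus the 5′ control probe sets of ACTB and GAPDH, moved with AZA in 2 lines. It was 1.59 and 0.939 on the vehicle arrays of AML-193 against a mean of 0.198 after AZA, and in HL60 it was 0.0443 in vehicle against 0.722 after AZA, while HNT-34 and KG1a stayed between -0.102 and 0.0587. The 9 genes and the lists were also fitted with this indicator as a covariate, whereas the fit of single probe sets was made without it. Over all 14049 tested genes, the covariate took those past the test from 5751 to 373 in AML-193 and from 5793 to 2149 in HL60. In HNT-34 the number went from 4245 to 4556 and in KG1a from 1393 to 1686. Losing a call with the covariate was thus common to most genes called in AML-193 and HL60. In these lines the indicator moved with the treatment, so a lost call cannot tell the drug from RNA quality. Standard errors also grew, for TAP1 in AML-193 from 0.08 to 0.17. The indicator varied most within AML-193 vehicle (SD 0.463, at most 0.163 in other groups), so the adjustment leaned most on that pair of arrays. DNMT1, the maintenance DNA methyltransferase that AZA traps, had a transcript change of -0.46 ± 0.10 (SE) in HNT-34 (adjusted p = 0.00246) and of -0.21, -0.13 and -0.18 in AML-193, KG1a and HL60, which did not pass the test.

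In the vehicle arrays HNT-34 stood apart from the other 3 lines. It had the lowest signals of NLRC5, PSMB9, TAP1, PSMB8, TAP2 and HLA-F and the highest signal of HLA-E. For NLRC5, the coactivator, the signal of HNT-34 minus the mean of the other lines was -3.83 on the log2 scale, a 14.2-fold difference. PSMB9 was 5.53-fold lower, TAP1 5.41-fold, PSMB8 3.05-fold, TAP2 2.38-fold and HLA-F 2.01-fold, whereas HLA-E was 2.15-fold higher. Differences of TAPBP and B2M were small, at 1.32-fold and 1.12-fold lower. These are averages over a culture, so fewer cells expressing a gene and less RNA per cell cannot be told apart.

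NLRC5 was 6.37 and 6.60 on the vehicle arrays of HNT-34, both under the array median, and 10.9 and 10.6 in AML-193, 10.2 and 9.93 in KG1a, and 10.1 and 10.1 in HL60. No HNT-34 vehicle array came within 3 log2 units of a vehicle array of another line. The arrays have no detection calls here and dim signals are compressed, so the fold of NLRC5 is the measured difference and its true size is not known. PSMB9 was 9.67 and 9.32 in HNT-34, against 12.0 and 12.3 in AML-193, 11.7 and 12.0 in KG1a and 11.8 and 11.9 in HL60. TAP1 was 8.10 and 8.12 in HNT-34, against 10.9 and 10.9 in AML-193, 10.7 and 10.6 in KG1a and 10.1 and 10.2 in HL60. Both genes, which start from opposite sides of the same short stretch, had both HNT-34 arrays below every other vehicle array. PSMB8 was 11.1 and 11.2 in HNT-34 and between 12.6 and 12.9 on the 6 vehicle arrays of the other lines. TAP2 was 9.76 and 9.66 in HNT-34 and between 10.8 and 11.1 elsewhere. HLA-F was 11.0 and 11.0 in HNT-34, 11.5 and 11.6 in KG1a, 12.0 and 11.8 in HL60 and 12.6 and 12.7 in AML-193, so its 4 lines did not overlap. HLA-E went the other way, at 14.2 and 14.3 in HNT-34 against 13.4 and 13.5 in AML-193, 13.3 and 13.3 in HL60 and 12.6 and 12.7 in KG1a.

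The vehicle level differed between lines for all 9 genes by the moderated F-test of limma, as it did for 85.1% of all tested genes. Taken pair by pair, 7 of the 9 genes were lower in HNT-34 than in AML-193, where 32.7% of all tested genes were. Against KG1a 8 of 9 were lower, where 24.7% of all genes were, and against HL60 7 of 9, where 29.6% were. These 3 comparisons share the vehicle arrays of HNT-34. Ranked from the lowest of 14049 genes by HNT-34 minus the mean of the other lines, NLRC5 was 102nd, PSMB9 277th and TAP1 285th. With the RNA-quality covariate, the differences of NLRC5, PSMB9, TAP1, PSMB8, TAP2, HLA-F and HLA-E between HNT-34 and each other line kept their direction and passed the test.

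Many neighbours in the order of the lines did not differ beyond their spread. For TAP2, PSMB8 and PSMB9, AML-193, KG1a and HL60 were not separated by the test (adjusted p from 0.0801 to 0.939 over their 9 pairs). NLRC5 was highest in AML-193, above KG1a by 0.69 ± 0.11 (SE, adjusted p = 0.000101) and above HL60 by 0.67, and KG1a and HL60 differed by -0.02 with a 95% interval from -0.26 to 0.22; the covariate took both differences of AML-193 below the threshold. TAP1 ran in the order AML-193, KG1a, HL60, HNT-34, each step past the test, although the step from AML-193 to KG1a, 0.26, was 0.03 with the covariate. TAPBP was highest in AML-193 (12.3 and 12.4), then KG1a (12.1 and 11.7), and lowest in HNT-34 (11.3 and 11.7) and HL60 (11.5 and 11.4), which differed by 0.04 (95% interval -0.25 to 0.34). With the covariate none of the 3 differences of AML-193 in TAPBP passed the test (adjusted p from 0.158 to 0.589). B2M spanned only 0.34 between lines, with AML-193 (14.3 and 14.5) and HNT-34 (14.5 and 14.4) under KG1a (14.7 and 14.8) and HL60 (14.7 and 14.7). That place of AML-193 in B2M did not hold with the covariate, under which its difference from KG1a went from -0.34 to 0.13 (adjusted p = 0.535), from HL60 from -0.30 to 0.17 (adjusted p = 0.412) and from HNT-34 from -0.05 to 0.44 (adjusted p = 0.0407). Another bright B2M probe set, 201891_s_at, put AML-193 highest in vehicle, at 14.6 against 14.1 in HNT-34 and 14.3 in KG1a and HL60. The B2M signals lie near the top of the arrays' range, where differences may be compressed. HLA-E in AML-193 and HL60 differed by 0.14 (adjusted p = 0.0981).

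**Figure D2:**
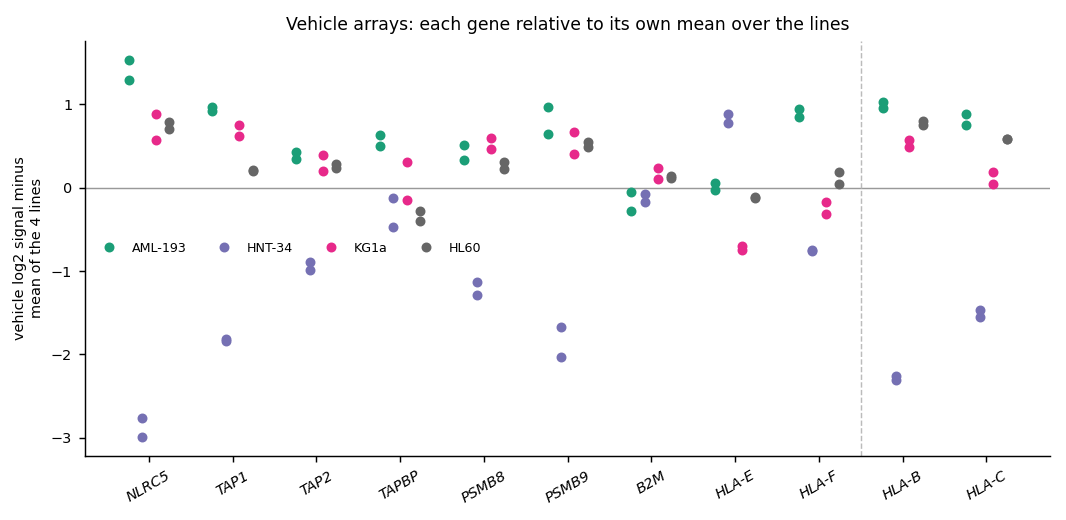
Vehicle arrays of 9 presentation genes and, right of the dashed line, of the classical heavy chains HLA-B and HLA-C, each gene relative to its own mean over the 4 lines (log2, y axis). Each point is an array, coloured by line. Both HNT-34 points are the lowest for NLRC5, TAP1, TAP2, PSMB8, PSMB9, HLA-F, HLA-B and HLA-C and the highest for HLA-E.

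Other probe sets of these genes gave the same order in part. The HLA-E probe set with no cross-match suffix, 200904_at, was also highest in HNT-34, at 12.4 against 10.6 to 11.1 in the other lines. This matters because the HLA-E and HLA-F probe sets that stood for the genes end in _x_at, a suffix with which the manufacturer marks probe sets that may match other transcripts, and heavy chains resemble each other. The HLA-F probe set without the suffix, 221978_at, reached the array median on 3 of 16 arrays. Of the TAP2 probe sets, 204770_at was again lowest in HNT-34 (7.58 against 7.74 to 8.24), but 204769_s_at was not: it was 9.20 in HNT-34, 9.22 in AML-193, 8.83 in KG1a and 10.4 in HL60. The low TAP2 signal of HNT-34 therefore held for 225973_at and not for every TAP2 probe set. The second bright TAPBP probe set, 1555565_s_at, was lowest in AML-193, the line in which 208829_at was highest. TAP1, PSMB8, PSMB9 and NLRC5 had a single probe set each.

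After AZA the 9 genes did not move together. TAP1 rose in HNT-34 and HL60, and in HL60 TAP2 and PSMB8 fell, PSMB8 with no call under the RNA-quality covariate. TAPBP rose in HL60 by the probe set that stands for it, while another bright probe set fell there. In AML-193 B2M rose and TAP1, TAP2 and NLRC5 fell, but none of these 4 passed the test with the RNA-quality covariate. With that covariate 373 of all tested genes passed in AML-193, against 5751 without it. In KG1a no member passed. The largest of these changes was 1.83-fold, for TAPBP in HL60.

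**Figure D3:**
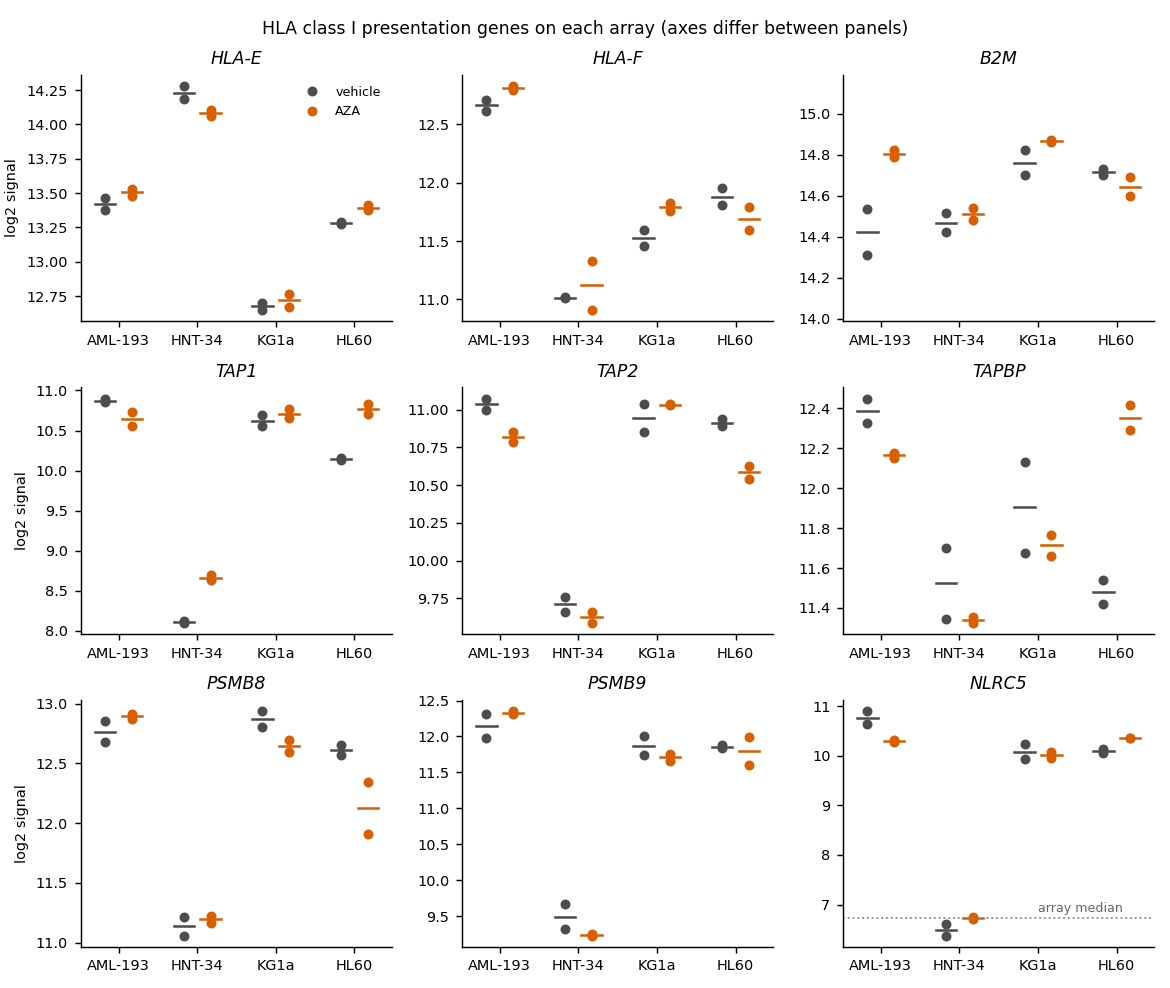
Log2 signal of each of the 9 genes on every array, by line, with vehicle in grey, AZA in orange and the group means as bars; the y axes differ between panels. The AZA arrays of TAP1 lie above the vehicle arrays in HNT-34 and HL60 and below them in AML-193, and NLRC5 in HNT-34 stays close to the array median.

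TAP1, the first subunit of the peptide transporter, went from 8.10 and 8.12 in HNT-34 vehicle to 8.70 and 8.63 after AZA. In HL60 it went from 10.1 and 10.2 to 10.8 and 10.7. The AZA arrays lay above the vehicle arrays in both lines, by 0.55 ± 0.08 (SE, adjusted p = 0.000191) in HNT-34 and by 0.63 ± 0.08 (adjusted p = 6.29e-05) in HL60, that is 1.47-fold and 1.55-fold. With the covariate the rises were 0.57 and 0.51 and still passed. HNT-34 after AZA stayed below the vehicle arrays of every other line. In AML-193 TAP1 went from 10.9 and 10.9 to 10.7 and 10.6, a fall of -0.24 ± 0.08 (adjusted p = 0.0345) that was -0.04 with the covariate, and in KG1a the change was 0.09, with overlapping arrays. The response differed between lines (moderated F-test of limma, adjusted p = 0.000123; with the covariate 0.0126). The response of AML-193 minus that of HL60 was -0.87 and minus that of HNT-34 -0.79, that of KG1a minus HL60 was -0.54 and that of HNT-34 minus KG1a 0.46, each past the test. With the covariate only the difference between HNT-34 and KG1a, 0.48, still passed (adjusted p = 0.0103).

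TAP2, the partner subunit, did not follow TAP1. In HL60 it went from 10.9 and 10.9 to 10.6 and 10.5, with both AZA arrays below both vehicle arrays, a fall of -0.33 ± 0.08 (adjusted p = 0.00441; -0.44 with the covariate). In AML-193 the arrays went from 11.1 and 11.0 to 10.8 and 10.9, a change of -0.22 ± 0.08 (adjusted p = 0.0411), which was -0.05 with the covariate. In HNT-34 it was -0.09 and in KG1a 0.09. KG1a and HL60 differed in response by 0.42 (adjusted p = 0.0138). The other TAP2 probe sets varied: 204770_at fell by 1.10 in HL60 (adjusted p = 1.4e-05 over all probe sets) and was 0.40 higher in AML-193 (adjusted p = 0.0115), whereas 204769_s_at lay between -0.11 and 0.05 in the 4 lines, and 208428_at was under the array median on every array. The fall of TAP2 in HL60 was thus seen by 2 of the 3 bright probe sets. Of these, 204770_at was fitted without the covariate, and it moved opposite to the 3′ minus 5′ signal in both HL60 and AML-193. The part of RNA quality in the changes of 204770_at was not tested.

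TAPBP, the tapasin that ties class I molecules to the transporter, went from 11.5 and 11.4 to 12.4 and 12.3 in HL60. The rise was 0.87 ± 0.14 (adjusted p = 0.000264), or 1.83-fold, and 0.77 with the covariate (adjusted p = 0.0451). In AML-193, HNT-34 and KG1a the change was -0.22, -0.18 and -0.19, with no call, and each of these responses was below that of HL60, by a difference of -1.10, -1.06 and -1.06 past the test; with the covariate the difference from AML-193 was -0.82 and did not pass. The second bright probe set moved the opposite way in HL60. Probe set 1555565_s_at went from 9.49 and 9.53 to 8.26 and 8.32 there, a fall of -1.22 (adjusted p = 0.0128 over all probe sets), and in AML-193 it went from 7.31 and 7.62 to 8.61 and 8.89, a rise of 1.28 (adjusted p = 0.0102). Its vehicle arrays differed from each other in HNT-34 (9.89 and 8.90) and KG1a (9.06 and 10.3). The third, 210294_at, stayed near the array median and was 0.10 higher in HL60 with no call. The direction of TAPBP in HL60 therefore depends on the probe set, and which transcripts each probe set reports was not tested. In HL60 and AML-193, 1555565_s_at moved opposite to the 3′ minus 5′ signal. The mean of that signal went from 0.0443 to 0.722 in HL60 and from 1.27 to 0.198 in AML-193. Single probe sets were fitted without the covariate, so the part of RNA quality in the changes of 1555565_s_at was not tested. The windows of TAP1, TAP2 and TAPBP printed here each hold an IRF element. Any part of this element in these changes was not tested.

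**Figure D4:**
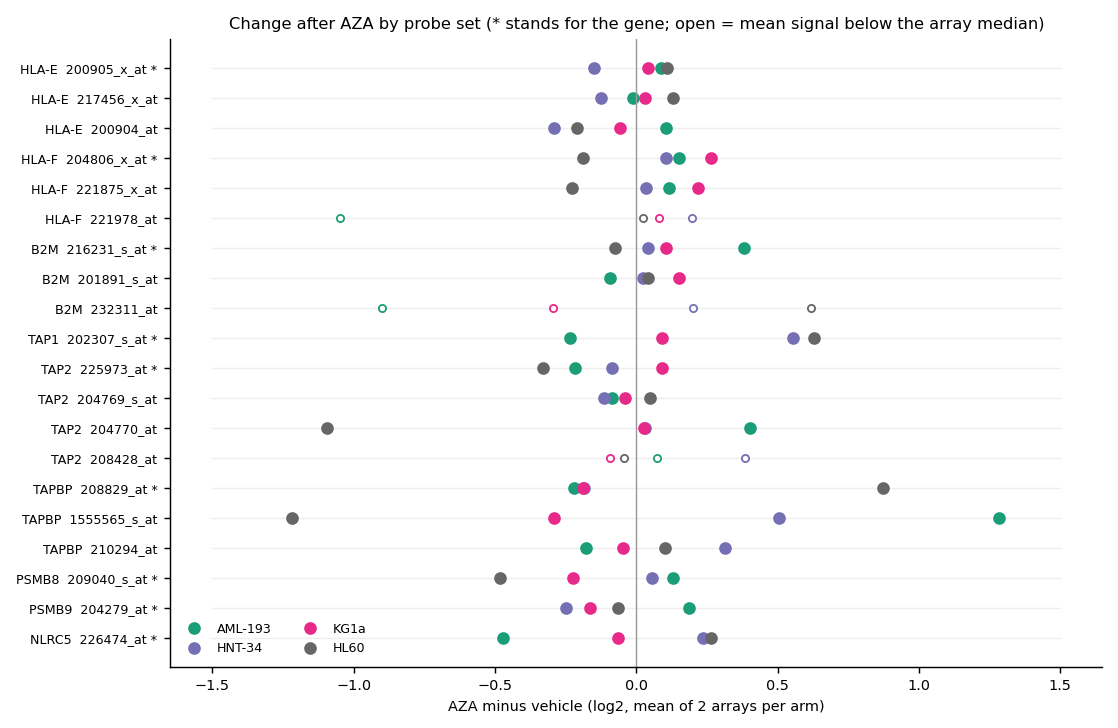
Change after AZA (log2, AZA minus vehicle, means of 2 arrays per arm) for all 20 probe sets of the 9 genes, coloured by line; an asterisk marks the probe set that stands for the gene and open circles a mean signal below the array median. TAPBP 208829_at and 1555565_s_at lie on opposite sides of 0 in HL60, at 0.87 and -1.22.

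NLRC5 had no change past the test outside AML-193. There the arrays went from 10.9 and 10.6 to 10.3 and 10.3, below both vehicle arrays, a change of -0.47 ± 0.11 (adjusted p = 0.00491). This was 0.01 with the covariate, and -0.35 (adjusted p = 0.0595) without the first vehicle array, whose 3′ minus 5′ signal was the highest of all. In HNT-34 NLRC5 went from 6.37 and 6.60 to 6.70 and 6.75, a difference of 0.24 that missed the threshold (adjusted p = 0.139) and passed it with the covariate (0.28, adjusted p = 0.0380). HL60 went from 10.1 and 10.1 to 10.4 and 10.4, a difference of 0.26 (adjusted p = 0.0764; -0.04 with the covariate), and KG1a had -0.07 with overlapping arrays. AML-193 differed in response from HNT-34 by -0.71 (adjusted p = 0.00449) and from HL60 by -0.74 (adjusted p = 0.00196), and neither difference passed with the covariate.

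Of the immunoproteasome subunits PSMB8 and PSMB9, only PSMB8 passed the test, and only in HL60. PSMB8 in HL60 went from 12.6 and 12.7 to 11.9 and 12.3, a fall of -0.48 ± 0.12 (adjusted p = 0.00586). Without the lower of the AZA arrays the change was -0.27 (adjusted p = 0.0718), and with the covariate it was -0.28 (adjusted p = 0.364). In KG1a PSMB8 went from 12.9 and 12.8 to 12.6 and 12.7, a difference of -0.22 that did not pass. PSMB9 passed the test in none of the 4 lines, with differences of 0.19, -0.25, -0.16 and -0.06 in AML-193, HNT-34, KG1a and HL60. In HNT-34 it went from 9.67 and 9.32 to 9.23 and 9.26, below both vehicle arrays, with a 95% interval from -0.56 to 0.07. TAP1, across the short stretch between their starts, rose in the same arrays.

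B2M, the light chain, went from 14.3 and 14.5 to 14.8 and 14.8 in AML-193. The rise of 0.38 ± 0.08 (adjusted p = 0.00258) was -0.02 with the covariate and was not seen by 201891_s_at, another bright B2M probe set, whose change was -0.09 (adjusted p = 0.279 over all probe sets). In HNT-34, KG1a and HL60 the differences were 0.04, 0.10 and -0.07, with 95% intervals inside -0.25 to 0.28.

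The heavy chains HLA-E and HLA-F passed the test in no line. HLA-E in HNT-34 went from 14.2 and 14.3 to 14.1 and 14.1, a difference of -0.15 (adjusted p = 0.128). The probe set without the cross-match suffix, 200904_at, gave a change of -0.29 there (adjusted p = 0.0193 over all probe sets). In the other lines HLA-E differed by 0.09, 0.04 and 0.11. HLA-F in KG1a went from 11.5 and 11.6 to 11.8 and 11.8, a difference of 0.26 (adjusted p = 0.203), and 221875_x_at gave 0.22 there. In AML-193, HNT-34 and HL60 it was 0.15, 0.10 and -0.19. The dim HLA-F probe set 221978_at was -1.05 in AML-193 (adjusted p = 0.000728 over all probe sets), with a mean of 7.80 in vehicle.

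The counts of members past the test are given beside the shares of all tested genes, and with 9 members they lay near those shares. In AML-193, 1 of 9 members rose where 20.7% of all tested genes rose, and 3 of 9 fell where 20.2% fell. In HNT-34, 1 of 9 rose where 15.4% of all genes rose and 0 fell where 14.8% fell; limma's unadjusted p was under 0.05 for 2 members in that line. KG1a had 0 members past the test in either direction, where 6.56% of all genes rose and 3.36% fell, and 1 member, HLA-F, with an unadjusted p under 0.05 in limma. In HL60, 2 of 9 rose where 25.2% rose, and 2 of 9 fell where 16% fell. For the mean of the 4 responses, TAP1 (0.26 ± 0.04, adjusted p = 0.00024) and B2M (0.11 ± 0.04, adjusted p = 0.0416) were higher, where 23.3% of all genes were, and TAP2 was lower (-0.14 ± 0.04, adjusted p = 0.0141), where 16.5% were. B2M lost this call with the covariate, at 0.07 (adjusted p = 0.0919). By the F-test, 6 of 9 members (B2M, TAP1, TAP2, TAPBP, PSMB8 and NLRC5) responded differently between lines, where 57% of all genes did, and with the covariate TAP1, TAP2 and TAPBP remained. The median absolute change of the members was 0.22 in AML-193, 0.15 in HNT-34, 0.10 in KG1a and 0.26 in HL60, beside 0.21, 0.16, 0.11 and 0.21 over all tested genes.

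**Figure D5:**
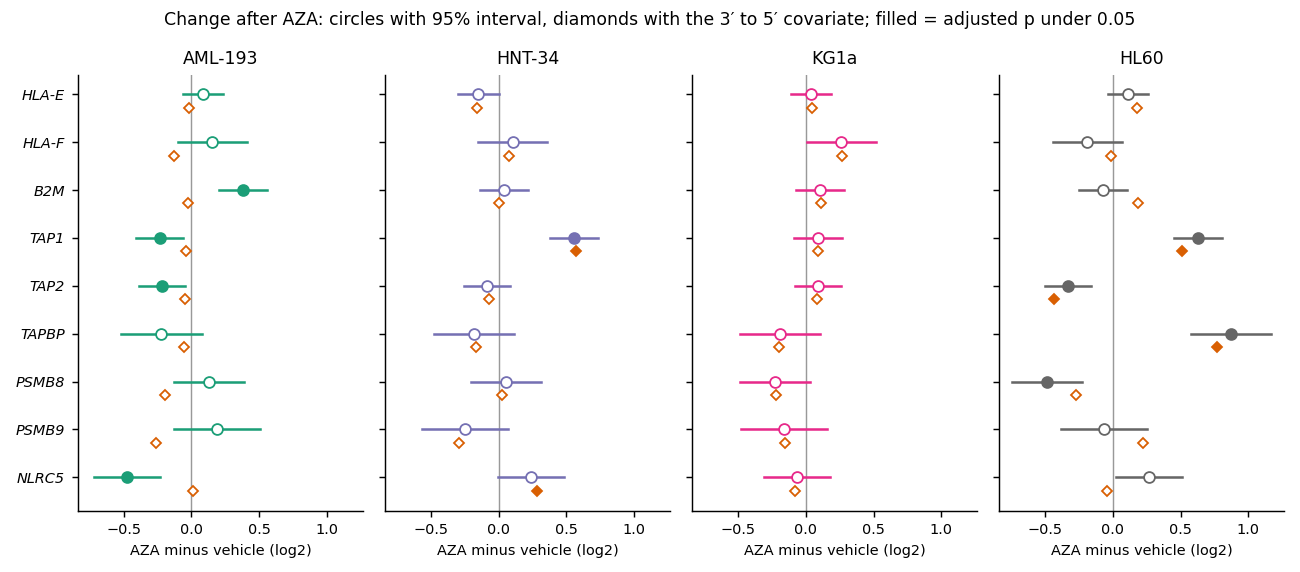
Change after AZA (log2) of the 9 genes in each line. Circles with bars are the estimate and its 95% interval, diamonds the estimate with the RNA-quality covariate, and filled symbols have an adjusted p under 0.05. TAP1 is filled in both fits in HNT-34 and HL60, while no diamond is filled in AML-193 or KG1a.

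Further genes of the pathway were read as lists, for which the background in all tested genes was 20.7% higher and 20.2% lower in AML-193, 15.4% and 14.8% in HNT-34, 6.56% and 3.36% in KG1a, and 25.2% and 16% in HL60. The other class I heavy chains and class I-like molecules gave 4 rises in AML-193, 5 in HNT-34, 3 in KG1a, and 2 rises and 2 falls in HL60, of 11 tested. With the covariate 5 rose in HNT-34, 4 in KG1a, and 2 rose and 2 fell in HL60. Over all tested genes, 373 passed with the covariate in AML-193, 4556 in HNT-34, 1686 in KG1a and 2149 in HL60. Without it 5751, 4245, 1393 and 5793 passed. The 3 measured genes ULBP1, ULBP2 and ULBP3 were too dim to be tested. The median change of the 11 tested genes of this list was 0.16, 0.16, 0.15 and 0.11 in AML-193, HNT-34, KG1a and HL60. Over all tested genes it was 0.02, 0.01, 0.02 and 0.05. HLA-B, a classical heavy chain, went from 11.6 and 11.5 in HNT-34 vehicle to 12.3 and 12.3, a rise of 0.73 ± 0.07 (adjusted p = 2.26e-06). HLA-C, another, went from 12.2 and 12.1 to 12.7 and 12.7, a rise of 0.56 ± 0.08 (adjusted p = 0.000115). HNT-34 had the lowest vehicle signals of both, 11.5 for HLA-B against 14.4 to 14.8 in the other lines and 12.1 for HLA-C against 13.8 to 14.5. All probe sets of HLA-B and HLA-C carry the suffix _x_at, and in HNT-34 each of them was higher after AZA, by 0.49 to 0.90. In that line TAP1 and these heavy chains thus rose. HLA-E, HLA-F and B2M had no change past the test by the probe sets that stand for them. The HLA-E probe set 200904_at changed by -0.29 there, past the test over all probe sets. FCGRT, the neonatal Fc receptor that pairs with B2M, rose by 1.48 in HL60, 0.76 in KG1a and 0.54 in AML-193. MR1, which presents microbial vitamin metabolites, rose by 0.59 in HNT-34 and 0.53 in KG1a and had a change of -0.62 in HL60. MICA, a stress ligand of NKG2D, rose by 0.36 in HNT-34 and had a change of -0.67 in HL60. CD1D, a lipid-presenting molecule, was 0.74 higher in HL60 from a dim vehicle signal of 4.98 and 0.48 higher in AML-193. PROCR, the endothelial protein C receptor, rose by 0.62 in AML-193 and by 0.72 in KG1a, there from a dim signal of 5.39. HFE, a class I-like regulator of iron uptake, rose by 0.29 in AML-193.

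The genes that supply peptides, 15 tested of 16 listed, gave 7 rises and 2 falls in AML-193, 2 and 4 in HNT-34, 2 falls in KG1a and 3 rises and 3 falls in HL60, with medians of 0.14, -0.05, -0.06 and -0.07. With the covariate 2 rose and 4 fell in HNT-34, 3 fell in KG1a, and 2 rose and 1 fell in HL60. ERAP2, an aminopeptidase that trims peptides in the endoplasmic reticulum, changed by -1.22 in AML-193, -0.80 in HNT-34 and -0.43 in KG1a. In HL60 it was -0.12 with no call, although 1554273_a_at, another ERAP2 probe set, was -2.62 there. ERAP1, its companion, rose by 0.95 in HL60 and changed by -0.38 in HNT-34. LAP3, a cytosolic aminopeptidase, rose by 1.34 in AML-193 and changed by -0.56 in HL60, with 0.49 and -0.02 and no call under the covariate. PSME3, a proteasome activator, rose by 0.99 and NPEPPS, a cytosolic aminopeptidase, by 0.88 in AML-193. In HL60 NPEPPS changed by -0.46, with no call under the covariate. BLMH, bleomycin hydrolase, changed by -0.98 in HL60 and -0.34 in HNT-34 and was 0.47 higher in AML-193. THOP1, a peptidase that degrades antigenic peptides, changed by -0.39 in HNT-34. PSMB10, the remaining inducible subunit of the immunoproteasome, rose by 0.51 in HL60 and 0.29 in HNT-34 and changed by -0.34 in KG1a.

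The chaperones of peptide loading, all 10 tested, gave 5 rises in AML-193, 4 rises and 1 fall in HNT-34, 4 rises in KG1a, and 6 rises and 1 fall in HL60. Their medians were 0.24, 0.13, 0.23 and 0.19. With the covariate 4 rose and 1 fell in HNT-34 and 5 rose in KG1a, while in HL60 3 rose and 1 fell. VCP, an ATPase that extracts proteins from the endoplasmic reticulum, rose by 0.80 in AML-193 and 0.46 in HNT-34. CANX, calnexin, rose by 0.38 in AML-193, and P4HB, a disulfide isomerase, by 0.40 in KG1a. CALR, calreticulin, rose by 1.19 ± 0.07 in HL60 (adjusted p = 1.09e-07), 0.33 in KG1a and 0.30 in HNT-34. In AML-193 it was 0.08 with no call, while 200935_at, another CALR probe set, was 1.33 higher there. PDIA3, the disulfide isomerase bound to tapasin in the loading complex, rose by 0.61 in HL60, 0.48 in KG1a, 0.24 in HNT-34 and 0.61 in AML-193. HSPA5, the general chaperone BiP, rose by 0.48 in HL60, 0.38 in KG1a, 0.27 in HNT-34 and 0.28 in AML-193. TAPBPL, a tapasin relative that edits peptides, changed by -1.01 in HL60, where TAPBP 208829_at rose, and was 0.52 higher in AML-193. ERP29, a further chaperone of the endoplasmic reticulum, changed by -0.55 in HNT-34. In AML-193 no gene of this list, of the peptide supply list or of the heavy chain list passed the test with the covariate.

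Among regulators of class I transcription, 16 tested of 18 listed, 5 rose and 4 fell in AML-193, 2 and 2 in HNT-34, 1 and 1 in KG1a and 3 and 4 in HL60, with medians of 0.13, -0.11, -0.01 and 0.04. With the covariate 3 rose and 4 fell in HNT-34, 1 and 1 in KG1a and 2 and 2 in HL60. IRF9, the DNA-binding part of the complex that type I interferon activates, rose by 0.85 ± 0.07 in HNT-34 (adjusted p = 9.48e-07), 0.65 in KG1a and 0.95 in HL60, and was -0.02 in AML-193. IRF1, which binds IRF elements of class I promoters, changed by -0.36 in KG1a and -0.19 in HNT-34. EZH2, the methyltransferase of histone H3 that silences class I genes in some tumours, changed by -0.60 in AML-193 and -0.59 in HNT-34. RFX5, a subunit of the RFX complex, rose by 0.29 in HNT-34 and changed by -0.23 in AML-193. RFXAP, another, changed by -0.65 in HL60 and -0.60 in AML-193. NFYB, a subunit of NF-Y, changed by -0.61 in HL60 and was 0.26 higher in AML-193. NFKB1, a subunit of NF-kappa-B, rose by 0.94 in AML-193. RELA, its partner, changed by -0.89 in HL60 and rose by 0.53 in AML-193. With the covariate no gene of this list passed in AML-193, and RFXAP did not pass in HL60.

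The interferon receptors and their kinases and inhibitors, all 10 tested, gave 5 rises and 2 falls in AML-193, 1 rise and 5 falls in HNT-34, 4 rises in KG1a, and 5 rises and 1 fall in HL60, with medians of 0.24, -0.20, 0.13 and 0.17. With the covariate 1 fell in AML-193 and 1 rose in HL60, so most calls in these 2 lines were lost, while HNT-34 had 1 rise and 5 falls and KG1a 4 rises. SOCS3, an inhibitor of cytokine signalling, changed by -0.81 in HNT-34. In HL60 it rose by 1.05 from a dim vehicle signal of 4.46, without a call under the covariate. JAK2, a receptor kinase, rose by 0.69 in AML-193, with no call under the covariate. In HNT-34 IFNGR1, the ligand-binding chain of the interferon gamma receptor, changed by -0.44 and IFNAR1, a chain of the type I interferon receptor, rose by 0.39. PTPN2, a phosphatase that acts on the receptor kinases, changed by -0.35 there. IFNGR1 rose by 0.44 in HL60, with no call under the covariate. IFNAR1 also rose by 0.52 in KG1a, as did IFNAR2, its partner chain, by 0.25. In HNT-34 IFNAR2 changed by -0.31. IFNGR2, the second chain of the interferon gamma receptor, rose by 0.27 in KG1a and by 0.44 in AML-193, there with no call under the covariate. It changed by -0.32 in HNT-34. SOCS1, an inhibitor of the receptor kinases, changed by -0.93 in AML-193 and rose by 0.45 in KG1a and 0.37 in HL60, the last from a dim vehicle signal of 6.20 and without a call under the covariate. TYK2, a receptor kinase, rose by 0.78 in HL60 and changed by -0.62 in AML-193, both without a call under the covariate. Genes of these lists that are not named or counted as tested were not analysed here.

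Across the 8 group means the members differed in how closely they correlated with NLRC5. Pearson's r with NLRC5 was 0.99 for PSMB9, 0.98 for TAP1, 0.96 for TAP2 and 0.93 for PSMB8. It was 0.77 for HLA-F, 0.72 for TAPBP, 0.49 for B2M and -0.77 for HLA-E. These are descriptions over 8 points from 4 lines, of which HNT-34 had the lowest NLRC5 signals. The mean of the members, each centred on its own mean, was -1.02 and -0.98 in HNT-34 vehicle and AZA, 0.57 and 0.55 in AML-193, 0.21 and 0.21 in KG1a and 0.18 and 0.27 in HL60, so HNT-34 was lowest under both treatments. Of all other tested genes, HERC5 (r = 0.998 with that mean over the 8 group means), TNFSF13B (0.995), MAP3K7 (0.994), LY75 (0.993) and CSF3R (0.993) had the most similar profile. HERC5, an interferon-induced ligase of ISG15, was 5.27 in HNT-34 vehicle against 9.23 to 10.2 in the other lines. TNFSF13B, the B-cell activating factor, was 4.81 against 11.8 to 13.6. LY75, an endocytic receptor of dendritic cells, was 4.62 against 8.64 to 10.4. MAP3K7 was 8.84 against 10.7 to 11.3, and CSF3R 7.22 against 10.5 to 12.0. The HNT-34 signals of HERC5, TNFSF13B and LY75 are dim, under the array median of 6.73. All of these genes were picked for a profile like that of the members, so their low signals in HNT-34 follow from the choice.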

How the data were processed

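The authors deposited a log2 signal for each probe set. The submitters' processing notes name affy and RMA, without versions. Scale and normalization were checked on the values, which were used as deposited. Of 54675 probe sets, 62 were array controls; 41097 had 1 gene symbol in the platform annotation, 1801 several and 11777 none, and 41043 matched a RefSeq table of GRCh38.p14, which changed 0 symbols. Each of 19775 genes was read from its brightest single-symbol probe set, by the mean of 16 arrays. Tested were the 14049 genes that reached the median of the array on 2 or more of the 16 arrays.

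A single limma model (version 3.58.1, R 4.3.3) gave each of the 8 groups a mean. It had 8 residual degrees of freedom and a prior worth 4.80, and used empirical Bayes moderation and Benjamini-Hochberg adjustment over all tested genes at 0.05; "passed the test" means an adjusted p under 0.05. Compared were AZA and vehicle within each line, the mean of these responses, their differences between lines, and the vehicle groups against each other. A separate fit held every probe set as its own feature. With 2 arrays per group the number of arrays limits the precision. The fit was tested on simulated data.

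Genes outside the 9 are named by rule: up to 4 per list and line with the largest change among those that passed, the 5 whose group means correlate most with the mean of the 9 genes, and DNMT1. Values in other lines are given for some of the named genes only. Other probe sets were looked at for the members, HLA-B, HLA-C, IRF9, ERAP2 and CALR, and not for the remaining named genes. The members, lists and tests were chosen with earlier results of these data known. Alternatives were the mean of a gene's probe sets, other filters, quantile normalization again, subtraction of the array median, moderation with a trend, only the line's 4 arrays, array weights, the 3′ minus 5′ control signal as a covariate, and each array left out in turn; the fit over probe sets was chosen after seeing the data. Methylation arrays that the labels mention were not analysed here.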

Additional observations from a re-analysis of the deposited data

Results flagged for a closer look

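For 6 of the 9 genes the response to AZA differed between lines by the moderated F-test of limma, adjusted over all tested genes. TAPBP had the widest difference, 1.10 on the log2 scale between HL60 and AML-193 (adjusted p = 0.00075), with the probe set 208829_at. TAP1 differed by 0.87 between HL60 and AML-193 (adjusted p = 0.000123), NLRC5 by 0.74 between HL60 and AML-193 (adjusted p = 0.00451) and PSMB8 by 0.61 between AML-193 and HL60 (adjusted p = 0.0241). B2M differed by 0.46 between AML-193 and HL60 (adjusted p = 0.0229), and TAP2 by 0.42 between KG1a and HL60 (adjusted p = 0.0259). In each pair the line named first had the higher response. AML-193 and HL60 are the lines whose 3′ minus 5′ control signal moved with AZA, in opposite directions, and its part in these differences was not tested beyond the fit with it as a covariate, under which TAP1, TAP2 and TAPBP still differed between lines.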

How the results depend on the processing

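Counts of members past the test were compared over all alternatives. In AML-193 the main count of 4 became 2 with no filter, with array weights and with only the line's 4 arrays (B2M and NLRC5 each time), and 0 with the 3′ minus 5′ covariate; leaving out 1 array gave 1 to 4, the lowest (B2M alone) without the first vehicle array. In HNT-34 the count of 1 became 2 with the mean of probe sets and with a trended, robust prior (HLA-E lower added) and 2 with the covariate (NLRC5 higher added), and stayed 1 with any array left out. For the mean response the count of 3 became 1 with the mean of probe sets, where B2M and TAP2 were lost, and ranged from 2 to 3 with an array left out. For the response between lines the count of 6 became 3 with the covariate and ranged from 3, without the second HL60 vehicle array, to 7. KG1a had 0 and the vehicle level 9 throughout, and HL60 had 3 to 5 with an array left out. A change of sign was counted where either value passed the test. With the mean of probe sets HLA-F in AML-193 was -0.26 (adjusted p = 0.0465), B2M -0.20 (0.0496), TAP2 0.043 and TAPBP 0.29 (0.0182), and TAPBP in HL60 was -0.081; these genes' probe sets differ. With the covariate B2M in AML-193 was -0.0225 and NLRC5 0.0116; the cause was not tested. TAP1 in HNT-34 and HL60 passed under every alternative. TAP2 in AML-193 also lost its call without any of several arrays of other lines (adjusted p from 0.0542 to 0.0575). No paired analysis was possible because the labels number no replicates.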
